A study of Homo sapiens with 24 samples.

Results

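The genes described here are 37 genes of glycolysis and of the response to low oxygen, taken by symbol from the glycolytic enzymes, the glucose and lactate transporters, the enzymes that steer pyruvate, and targets of the transcription factor HIF-1. All 37 were found among the 60617 gene identifiers of the count table, and 34 of them were among the 13098 genes with enough counts to test. The cells were THP1, a human monocytic leukaemia line, turned into macrophages with the phorbol ester PMA (10 ng/ml for 48 hours, then 48 hours without it). Libraries held RNA counted near the 3′ ends of polyadenylated transcripts. WT_shCTRL (6 libraries) was wild type at CD33 and carried empty pLKO.1, and WT_shPTPN6 (6 libraries) carried pLKO.1 with a hairpin against PTPN6. CD33KO_shCTRL (6 libraries) and CD33KO_shPTPN6 (5 libraries, since replicate 2 was not analysed here) were the CD33 knockout with the same vectors. All 4 groups had therefore met lentivirus from HEK-293FT cells for 24 hours, puromycin at 1 µg/ml and PMA, and all grew in medium with 1 mM pyruvate and 2 mM glutamine under 5% CO2. CD33 is a Siglec, a sialic acid-binding receptor that dampens myeloid cell signalling, and PTPN6 encodes SHP-1, a phosphatase recruited by such receptors. The labels give no oxygen level, no glucose concentration, no number of knockout clones or hairpin sequences, and no statement that replicates were separate cultures, so p-values measure only the spread between these libraries.

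Glycolysis takes glucose in through facilitative transporters, traps it by phosphorylation, commits it at phosphofructokinase and ends in pyruvate, which is reduced to lactate and exported or sent into mitochondria. HIF-1 is a heterodimer whose alpha subunit, encoded by HIF1A, is marked for destruction by oxygen-dependent prolyl hydroxylases (EGLN1 and EGLN3 among them). It binds short DNA elements with the core ACGTG or GCGTG and raises many glycolytic genes together with genes of angiogenesis, mitophagy and collagen hydroxylation. In macrophages the same programme also follows inflammatory stimulation, and HIF-1 protein is controlled mostly after transcription, so that HIF1A RNA and HIF-1 activity need not move together.

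RefSeq promoter windows (GRCh38.p14, the 250 bases before a start) were in the table used here for 32 of the 37 members. SLC2A3, BNIP3L, NDRG1, VEGFA and HILPDA were not among them. The letters ACGTG, on either strand, were in 24 of the 59 windows of these members (40.7%), against 6501 of 35116 windows in all (18.5%). The other core, GCGTG, was in 30.5% of the members' windows and in 32.2% of all windows, and CACGTG counts as an ACGTG match on both strands. The windows of 4 members with 2 or more ACGTG runs are printed below, chosen because these members moved in opposite directions in the knockout. ANKRD37 (chr4:185396591-185396840, plus strand) and BHLHE40 (chr3:4979187-4979436, plus strand) rose, and LDHA (chr11:18394313-18394562, plus strand) and PGK1 (chrX:78103998-78104247, plus strand) fell. Capitals mark ACGTG or its reverse complement CACGT, and the sequences run 5′ to 3′.
ANKRD37: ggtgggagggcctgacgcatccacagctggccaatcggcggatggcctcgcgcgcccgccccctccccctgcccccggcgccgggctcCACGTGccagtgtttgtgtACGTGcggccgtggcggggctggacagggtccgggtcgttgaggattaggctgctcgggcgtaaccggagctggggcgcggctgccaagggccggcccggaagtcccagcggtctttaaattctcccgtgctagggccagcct
BHLHE40: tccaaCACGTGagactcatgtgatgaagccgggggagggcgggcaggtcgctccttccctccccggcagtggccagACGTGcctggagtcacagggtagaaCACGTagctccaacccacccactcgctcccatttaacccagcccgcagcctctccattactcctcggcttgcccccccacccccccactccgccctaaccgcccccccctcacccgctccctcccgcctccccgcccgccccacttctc
LDHA: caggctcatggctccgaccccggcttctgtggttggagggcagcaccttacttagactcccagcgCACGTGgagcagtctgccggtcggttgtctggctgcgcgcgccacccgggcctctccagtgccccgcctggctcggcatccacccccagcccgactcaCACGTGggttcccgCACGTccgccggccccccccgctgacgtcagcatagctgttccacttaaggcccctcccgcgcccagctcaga
PGK1: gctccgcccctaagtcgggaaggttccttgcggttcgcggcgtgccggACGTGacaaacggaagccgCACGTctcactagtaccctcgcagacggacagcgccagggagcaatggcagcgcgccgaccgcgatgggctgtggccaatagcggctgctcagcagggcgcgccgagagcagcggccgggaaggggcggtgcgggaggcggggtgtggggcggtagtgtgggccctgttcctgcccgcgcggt
ANKRD37 and PGK1 hold 2 capital runs each, and BHLHE40 and LDHA hold 3 each. As they were picked for their opposite directions, they say nothing of how these letters and the direction go together. These are matches of letters, and no binding was measured.

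Wild-type libraries held 3318001 to 6269304 counts and knockout libraries 2024032 to 3749258, so low members rest on fewer counts in the knockout. Levels below are counts as a rate per library total (CPM), scaled by TMM, a method that matches libraries on the bulk of their genes. PTPN6 averaged 44.6 CPM in WT_shCTRL, 10.6 in WT_shPTPN6, 37.7 in CD33KO_shCTRL and 7.41 in CD33KO_shPTPN6. CD33 averaged 45.5, 88.8, 20.2 and 23.5 CPM in the same order, and as the labels do not place the edit, 3′ counts of CD33 need not report it. Of 12 macrophage and myeloid markers, 11, 11, 9 and 10 averaged at least 5 CPM. MRC1 averaged under 1 CPM in every group, and LYZ and CD163 averaged 3.49 and 2.41 CPM in CD33KO_shCTRL. The markers moved in both directions between WT_shCTRL and CD33KO_shCTRL. Mean CD14 went from 281 to 610 CPM and ITGAX from 63.5 to 151. FCER1G went from 1207 to 426 CPM, TYROBP from 964 to 347, CSF1R from 262 to 124 and PTPRC from 141 to 78.3. Summed, the 12 markers reached 2968 to 3383 CPM with wild type and empty vector, 4379 to 4740 with wild type and hairpin, 1792 to 2048 with knockout and empty vector and 3400 to 3655 with knockout and hairpin. Of the packaging-cell markers, LIN28B and PAX2 were at or near 0 in every group. The sum of the 8 was higher in the knockout, but the genes did not all move that way. Sums were 55.0 to 64.8 and 36.4 to 40.3 CPM in wild type (empty vector, hairpin) against 101 to 127 and 84.5 to 106 CPM in the knockout. CDH2 averaged 14.3, 3.24, 63.9 and 25.7 CPM and ZIC2 22.4, 25.3, 46.0 and 64.9 CPM in the 4 groups. INA went the other way, with means of 17.4, 6.03, 0.276 and 0.343 CPM, and L1CAM averaged under 5 CPM in every group. T and NK markers other than NCAM1 and all B cell markers were below 5 CPM in every group. Of the 4 erythroid markers only HBB passed 5 CPM, with means of 6.55, 5.65, 15.3 and 14.1 CPM in WT_shCTRL, WT_shPTPN6, CD33KO_shCTRL and CD33KO_shPTPN6, and ALAS2 was at or near 0. In the fibroblast and endothelial list PECAM1, which myeloid cells also express, made up most of a sum that ran from 178 to 197 CPM in WT_shCTRL up to 700.0 to 768 in CD33KO_shPTPN6.

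The 37 members together took 0.592 to 0.653% of the counts of a WT_shCTRL library and 0.843 to 0.930% of a WT_shPTPN6 library. Their share was 0.573 to 0.594% in CD33KO_shCTRL and 0.684 to 0.714% in CD33KO_shPTPN6. For this sum, each knockdown group was thus above its own control vector group with no overlap, whereas the knockout with the control vector overlapped WT_shCTRL. Summed alone, the members of glycolysis, transport and pyruvate use were lower in CD33KO_shCTRL than in WT_shCTRL, with no overlap. They took 0.530 to 0.591% of counts in WT_shCTRL and 0.427 to 0.438% in CD33KO_shCTRL. The shares of mitochondrial and ribosomal protein transcripts also differed between groups. Mitochondrial transcripts took 5.86 to 6.54%, 7.85 to 8.70%, 6.53 to 7.13% and 6.36 to 6.55% of counts in WT_shCTRL, WT_shPTPN6, CD33KO_shCTRL and CD33KO_shPTPN6. For ribosomal protein transcripts the shares were 5.72 to 6.74%, 8.47 to 8.75%, 4.16 to 4.40% and, last, 6.84 to 7.23%. The part of these differences, or of the marker levels above, in the members' levels was not tested. In bulk libraries, fewer cells of a kind and less RNA per cell cannot be told apart.

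In the CD33 knockout with the control vector, the hypoxia targets moved in 1 direction and the glycolytic members in both. All 10 HIF-1 targets outside glycolysis rose, led by ANGPTL4, ADM, NDRG1 and VEGFA, with a median log2 fold change of 1.24. The 23 tested members of glycolysis, transport and pyruvate use split into 8 that rose (34.8%) and 9 that fell (39.1%), with a median of -0.01. Those that rose were HK2, PFKL, PFKFB3, PFKFB4, ALDOC, ENO2, PKM and SLC16A3. GAPDH, TPI1, PGK1, ENO1 and LDHA were among those that fell, and PFKP and SLC2A3 fell most. Over all 34 tested members 19 rose, against 28.3% of all tested genes, and 9 fell, against 28.4%, by edgeR's quasi-likelihood test at an adjusted p under 0.05. The libraries of the 2 groups did not overlap for 24 members, against 34.1% of all genes. Here and below, the shares over all genes cover every tested gene and were not matched to the count levels of the members. The median over the 34 members was 0.27, beside -0.01 over all genes.

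ANGPTL4, a secreted inhibitor of lipoprotein lipase (chr19:8363289-8374373 in GENCODE 29, plus strand), had the largest change of any member. It lay at 0.690 to 2.19 CPM in WT_shCTRL, with a median of 1.20, and at 48.4 to 72.4 CPM in CD33KO_shCTRL, with a median of 51.5. No library of one group came near the other, and the means differed 43.4-fold. The log2 fold change was 5.39 ± 0.18 (SE; edgeR adjusted p = 6.5e-52). In WT_shPTPN6 the same gene lay at 1.64 to 3.72 CPM (median 2.85), overlapping WT_shCTRL, with a log2 fold change of 1.12 ± 0.29 (edgeR adjusted p = 0.000505). The CD33KO_shPTPN6 libraries gave 25.7, 34.7, 33.7, 38.1 and 29.0 CPM, all below every CD33KO_shCTRL library. Counts of ANGPTL4 in wild type were low, at 4 to 13 per WT_shCTRL library and 6 to 23 per WT_shPTPN6 library. With that limit, ANGPTL4 showed a rise in wild type and a fall in the knockout when the hairpin was added. The fall was -0.75 ± 0.13 (edgeR adjusted p = 3.31e-07), and the difference between the responses was -1.87 ± 0.32 (edgeR adjusted p = 7.46e-07). Exons of ANGPTL4 and of the antisense gene RAB11B-AS1 overlap, and with no strand setting stated, their reads cannot be told apart.

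NDRG1, a cytoplasmic stress-response protein whose RNA is a much used marker of hypoxia, was higher with each perturbation and highest with both. Its level was 131 to 147 CPM (median 139) in WT_shCTRL, 377 to 424 (median 382) in WT_shPTPN6 and 589 to 702 (median 656) in CD33KO_shCTRL. The 5 CD33KO_shPTPN6 libraries held 1041, 1018, 1080, 1028 and 1086 CPM. The 4 groups did not overlap anywhere. Against WT_shCTRL the group with both perturbations was up by 2.92 ± 0.05 on the log2 scale (edgeR adjusted p = 5.49e-78), a 7.56-fold difference. ADM, the vasodilator peptide adrenomedullin (chr11:10304680-10307397, plus strand), followed the same order at a lower level. WT_shCTRL libraries held 5.40 to 6.39 CPM (median 6.19), WT_shPTPN6 libraries 16.5 to 22.6 (median 19.9) and CD33KO_shCTRL libraries 21.6 to 34.3 (median 29.8). CD33KO_shPTPN6 gave 44.0, 44.8, 58.4, 42.8 and 46.6 CPM, above all other libraries. WT_shPTPN6 and CD33KO_shCTRL overlapped for ADM, and its log2 fold changes were 2.26 ± 0.14 for the knockout and 2.98 ± 0.14 for both perturbations (edgeR adjusted p = 8.01e-29 and 5.18e-39).

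VEGFA, which encodes the main angiogenic growth factor (chr6:43770184-43786487, plus strand), moved in opposite directions under the 2 perturbations. WT_shCTRL libraries held 80.1 to 99.6 CPM (median 91.6), CD33KO_shCTRL 282 to 364 (median 309.6) and WT_shPTPN6 49.3 to 67.1 (median 60.0). CD33KO_shPTPN6 held 158, 160.0, 155, 179.9 and 163 CPM, between the control and the knockout. No 2 of the 4 groups overlapped. The knockout changed VEGFA by 1.80 ± 0.06, the knockdown by -0.60 ± 0.07 in wild type and by -0.95 ± 0.06 in the knockout (log2; edgeR adjusted p = 1.2e-47, 1.48e-13 and 4.66e-24). BHLHE40, a transcriptional repressor induced by hypoxia, had the same directions. Its medians were 11.2 CPM in WT_shCTRL (8.17 to 14.2), 7.63 in WT_shPTPN6 (6.32 to 10.7) and 34.7 in CD33KO_shCTRL (22.9 to 43.1). The CD33KO_shPTPN6 libraries gave 19.3, 19.2, 15.7, 16.5 and 17.6 CPM. The knockdown changed it by -0.95 ± 0.15 in the knockout, where groups did not overlap, while the fall in wild type of -0.50 ± 0.15 had overlapping groups. That fall was lost when every library was thinned to the smallest (edgeR adjusted p = 0.379).

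**Figure D1:**
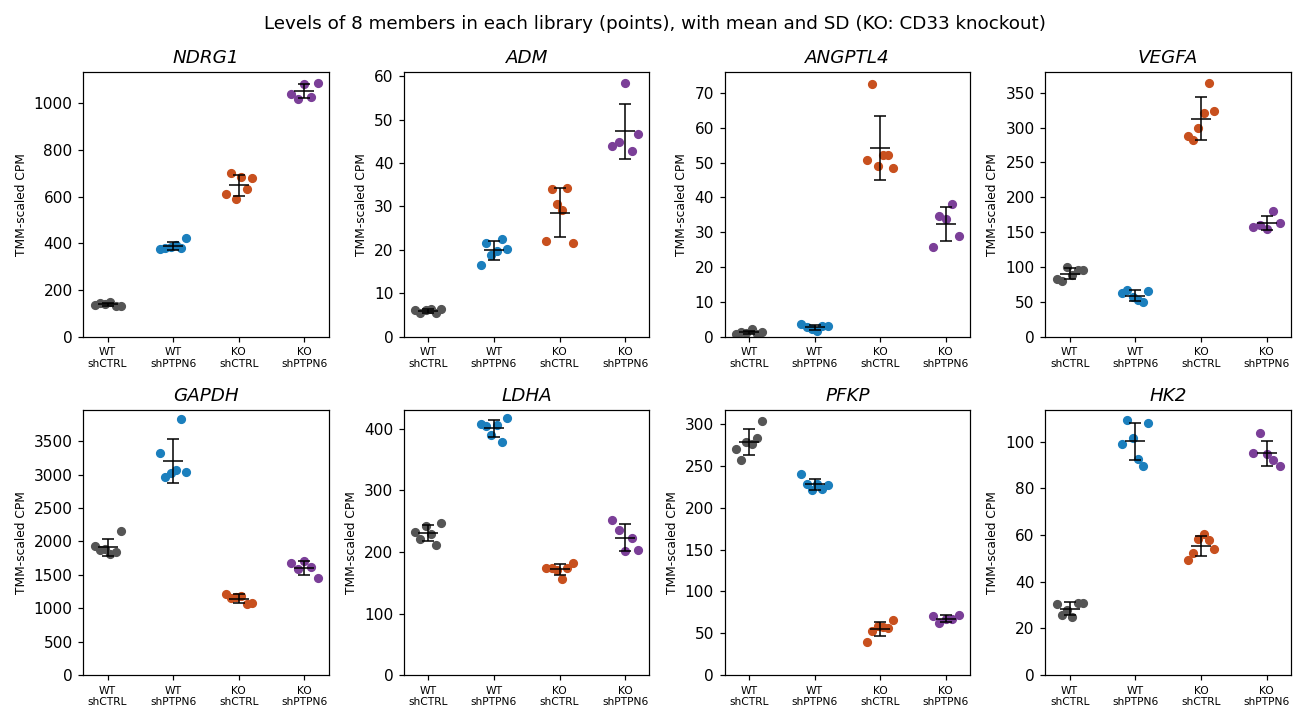
Level of 8 members in every library, in TMM-scaled CPM on a linear axis from 0 in each panel, by group (6, 6, 6 and 5 libraries), with the group mean as a line and the SD as a bar. NDRG1 and ADM step up from WT_shCTRL to CD33KO_shPTPN6, VEGFA is highest in CD33KO_shCTRL, and GAPDH and LDHA are highest in WT_shPTPN6.

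The remaining HIF-1 targets rose by less in the knockout. HILPDA, a lipid droplet protein, went from a median of 28.6 CPM (24.8 to 31.7) to 51.7 (48.0 to 55.2), a log2 fold change of 0.85 ± 0.09 (edgeR adjusted p = 2.6e-14). P4HA1, a subunit of the collagen prolyl hydroxylase, rose from 72.2 CPM (66.6 to 76.2) to 99.4 (91.7 to 115), by 0.48 ± 0.06. BNIP3L, a receptor for mitophagy, rose from 55.6 CPM (52.4 to 57.8) to 77.3 (65.5 to 88.0), by 0.49 ± 0.07. For these 3 genes the groups did not overlap. BNIP3, the paralogous mitophagy receptor, had overlapping groups, with 32.0 to 40.1 CPM in WT_shCTRL and 36.7 to 49.9 in CD33KO_shCTRL. Its call (0.21 ± 0.09, edgeR adjusted p = 0.0349) ended under several alternatives, with adjusted p up to 0.186 when no low genes were filtered. ANKRD37, a small ankyrin repeat protein, was low, at 2.50 to 4.89 and 3.42 to 8.78 CPM. The call of its rise of 0.75 ± 0.25 (edgeR adjusted p = 0.00786) was lost without CD33KO_shCTRL replicate 5 (adjusted p = 0.114). It was also lost with counts thinned to the smallest library (0.59 ± 0.37, edgeR adjusted p = 0.18).

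HIF1A itself changed little. Its median was 152 CPM in WT_shCTRL (146 to 163), 163 in WT_shPTPN6 (157 to 175) and 179 in CD33KO_shCTRL (171 to 195), and the CD33KO_shPTPN6 libraries held 168, 149, 154, 151 and 166 CPM. The knockout with the control vector was higher by 0.23 ± 0.05 on the log2 scale with no overlap (edgeR adjusted p = 0.000123), and HIF1A fell under the knockdown in the knockout, with a change of -0.19 ± 0.06 (adjusted p = 0.00743). In wild type the knockdown gave 0.11 ± 0.05 (edgeR adjusted p = 0.0578). The oxygen sensors EGLN1 and EGLN3 had only 68 and 103 counts over all 23 libraries and were not tested. EGLN3 had 2 to 15 counts in each wild-type library and 0 to 2 in each knockout library.

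At glucose entry, SLC2A3 fell in the knockout and SLC2A1 was not called. SLC2A3 encodes GLUT3, a high-affinity glucose transporter (chr12:7919230-7936275, minus strand). Its WT_shCTRL libraries held 27.5 to 33.1 CPM (median 29.8), WT_shPTPN6 13.2 to 18.9 (median 15.8) and CD33KO_shCTRL 2.66 to 7.33 (median 3.55). CD33KO_shPTPN6 held 2.47, 2.74, 3.59, 3.61 and 2.45 CPM. Both wild-type groups were apart from each other and from both knockout groups. The log2 fold change was -2.91 ± 0.17 for the knockout (7.29-fold lower) and -0.92 ± 0.11 for the knockdown in wild type (edgeR adjusted p = 2.21e-30 and 1.16e-11). SLC2A1, which encodes the ubiquitous transporter GLUT1, lay between 155 and 205 CPM in all 23 libraries. Its change was 0.04 ± 0.05 in the knockout and 0.12 ± 0.05 in the knockdown (edgeR adjusted p = 0.494 and 0.0375). The second call was lost in several alternatives, among them without WT_shCTRL replicate 4 (adjusted p = 0.133).

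The hexokinases, which phosphorylate incoming glucose, changed in opposite directions. HK2, the inducible form that docks on mitochondria (chr2:74833981-74893359, plus strand), held 24.9 to 31.0 CPM (median 29.1) in WT_shCTRL, 89.6 to 109 (median 100.5) in WT_shPTPN6 and 49.4 to 60.4 (median 56.1) in CD33KO_shCTRL. In CD33KO_shPTPN6 it held 95.3, 104, 94.7, 92.3 and 89.6 CPM, overlapping WT_shPTPN6. The difference between these 2 knockdown groups was not called (-0.07 ± 0.07, edgeR adjusted p = 0.393). HK1, the form of most tissues, had medians of 68.1 CPM (54.3 to 75.5), 116 (99.2 to 121) and 40.6 (35.7 to 46.8) in WT_shCTRL, WT_shPTPN6 and CD33KO_shCTRL, and 51.4, 42.5, 39.0, 53.1 and 50.3 CPM in CD33KO_shPTPN6. In the knockout HK1 changed by -0.71 ± 0.08 and HK2 by 0.97 ± 0.08 on the log2 scale (edgeR adjusted p = 6.57e-13 and 2.99e-19), and both rose with the knockdown in wild type, by 0.77 ± 0.07 and 1.82 ± 0.07. HK3, the leukocyte form, had only 219 counts in all. It held 2.41 to 10.5 CPM in WT_shPTPN6 and no more than 1.76 CPM in any other library, and its knockdown effect in wild type was 2.40 ± 0.30 (edgeR adjusted p = 1.82e-11).

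Phosphofructokinase, the committing step, changed the isoform with the most tags in the knockout. PFKP, the platelet isoform (chr10:3066333-3137712, plus strand), held 257 to 304 CPM (median 277) in WT_shCTRL, 222 to 240.4 (median 228) in WT_shPTPN6 and 40.1 to 66.0 (median 57.1) in CD33KO_shCTRL. The CD33KO_shPTPN6 libraries gave 70.1, 61.7, 66.4, 66.5 and 72.0 CPM. The knockout was 5.02-fold lower with no overlap, a log2 fold change of -2.32 ± 0.06 (edgeR adjusted p = 2.16e-59). PFKL, the liver isoform, rose in the knockout from a median of 98.6 CPM (93.2 to 109) to 137 (121 to 149.8), by 0.46 ± 0.06 (edgeR adjusted p = 1.53e-10). PFKM, the muscle isoform, was between 0.440 and 5.48 CPM. The counts of these 3′ tags do not scale with transcript length, and the isoforms are given here as shares of the tags of the enzyme. Shares of tags need not equal shares of transcripts, since how fully each gene was counted was not tested. PFKP made up 69.5 to 74.3% of them in WT_shCTRL and 23.2 to 35.1% in CD33KO_shCTRL, and PFKL 24.9 to 29.1% and 64.6 to 75.7%.

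The bifunctional PFKFB enzymes make and break the fructose bisphosphate that activates phosphofructokinase. PFKFB4 (chr3:48517684-48562015, minus strand) held 10.2 to 13.7 CPM (median 12.0) in WT_shCTRL, 39.7 to 49.1 (median 45.4) in WT_shPTPN6 and 41.1 to 50.0 (median 41.9) in CD33KO_shCTRL. With both perturbations it held 68.2, 59.9, 68.2, 78.3 and 75.7 CPM. WT_shCTRL was below every other library and CD33KO_shPTPN6 above, with the 2 single perturbations overlapping. Log2 fold changes were 1.89 ± 0.11, 1.91 ± 0.10 and 2.54 ± 0.10 for the knockout, the knockdown and both (edgeR adjusted p = 4.33e-32, 4.32e-35 and 3.86e-43). PFKFB3, the form whose kinase activity far outweighs its phosphatase activity, rose in the knockout from 50.8 CPM (41.4 to 56.2) to 74.8 (70.2 to 76.6), by 0.58 ± 0.08, and its change with the knockdown in wild type was a fall, to 39.6 (36.1 to 45.3), of -0.29 ± 0.08, with overlapping groups. As a share of the tags of both enzymes, PFKFB4 made up 15.3 to 23.8% in wild type with the empty vector and 50.7 to 54.5% with the hairpin. In the knockout its shares were 35.3 to 40.2% and 39.9 to 48.6%.

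**Figure D2:**
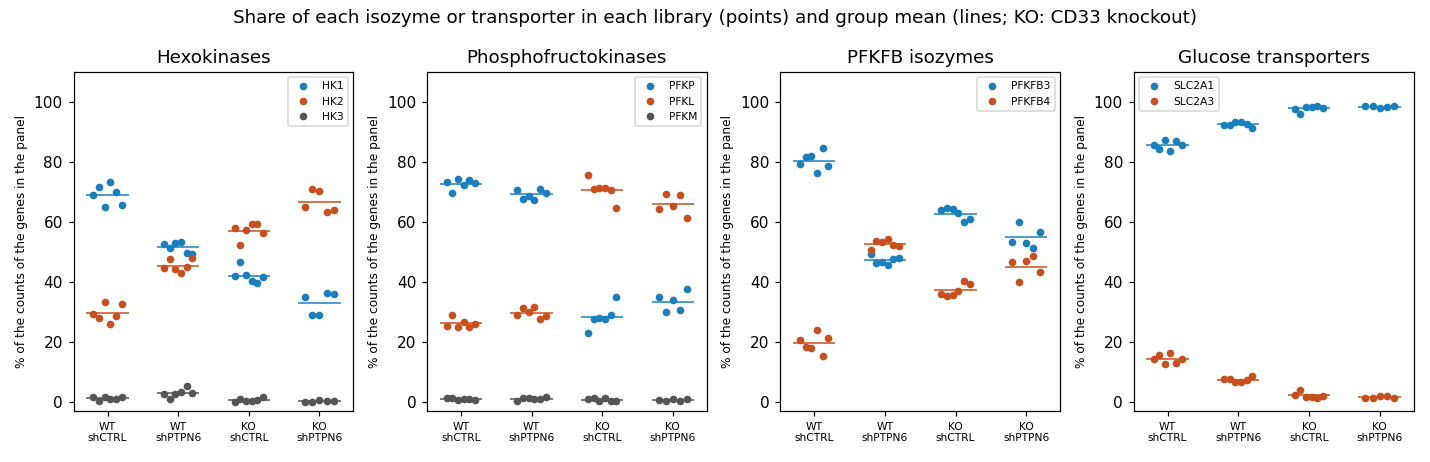
Share of the 3′ tags of each enzyme or transporter family taken by each isoform, in percent, for every library (6, 6, 6 and 5 by group) and 4 families. PFKP gives way to PFKL as the larger share in both knockout groups, HK2 passes HK1 there, and SLC2A3 is at most 4.17% of glucose transporter tags in every knockout library.

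From aldolase to pyruvate kinase, GAPDH, TPI1, PGK1 and ENO1 fell in the knockout and rose with the knockdown. GAPDH, the glyceraldehyde phosphate dehydrogenase often used as a reference gene (chr12:6533927-6538374, plus strand), held 1810.5 to 2154 CPM (median 1877) in WT_shCTRL, 2959.5 to 3825 (median 3053) in WT_shPTPN6 and 1061 to 1218 (median 1159) in CD33KO_shCTRL. The CD33KO_shPTPN6 libraries held 1680, 1581, 1713, 1617 and 1447 CPM. No 2 of the 4 groups overlapped. The log2 fold changes of the knockout and of the knockdown in wild type were -0.74 ± 0.05 and 0.75 ± 0.05 (edgeR adjusted p = 3.37e-23 and 8.65e-24). TPI1, the triose phosphate isomerase, had -0.35 ± 0.06 and 0.75 ± 0.05, and ENO1, the main enolase, -0.25 ± 0.04 and 0.42 ± 0.04, with no overlap in either comparison. PGK1, phosphoglycerate kinase, the first enzyme of the pathway to yield ATP, had -0.27 ± 0.05 with overlapping groups and 0.35 ± 0.05 without overlap. GPI, the glucose phosphate isomerase, rose with the knockdown from 189.8 CPM (179.9 to 208) to 322 (299.8 to 335) and was not called in the knockout (-0.07 ± 0.05, edgeR adjusted p = 0.221), though it was called lower there under upper-quartile scaling (-0.13, adjusted p = 0.0244).

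PKM, the pyruvate kinase of macrophages, and ENO2 and ALDOC did not fall with the others. PKM rose from 561 CPM (536 to 578) to 695 (669 to 728) in the knockout and to 882 (819 to 929.8) with the knockdown, log2 fold changes of 0.32 ± 0.04 and 0.66 ± 0.04 (edgeR adjusted p = 5.33e-10 and 5.97e-27). ENO2, the neuronal enolase, rose from 2.58 CPM (1.87 to 4.29) to 9.08 (7.18 to 10.3) in the knockout, by 1.64 ± 0.24, and made up 1.12 to 1.64% of enolase tags there. ALDOC, the brain aldolase, went from 10.2 CPM (7.36 to 11.0) to 33.9 (29.6 to 44.9) with the knockdown, by 1.81 ± 0.12, and to 14.0 (10.6 to 21.0) in the knockout, by 0.56 ± 0.15 with overlapping groups. ALDOA, the aldolase of muscle and most other tissues, had 25 counts in all 23 libraries and was not tested. In GENCODE 29 its exons overlap those of AC093512.2 on the same strand, which had 0 counts. PGAM1 had 395 counts, and its named pseudogenes had 54.2% of that number, so it is uncertain, and none of its changes was called.

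LDHA, which reduces pyruvate to lactate (chr11:18394388-18408425, plus strand), followed GAPDH. Its libraries held 211 to 247 CPM (median 231) in WT_shCTRL, 378 to 417 (median 406) in WT_shPTPN6 and 156 to 182 (median 174) in CD33KO_shCTRL, and 252, 236, 202, 223 and 203 CPM in CD33KO_shPTPN6. The last group overlapped WT_shCTRL and lay above CD33KO_shCTRL. The knockout changed LDHA by -0.42 ± 0.05 and the knockdown by 0.80 ± 0.05 (log2; edgeR adjusted p = 8.64e-12 and 4.54e-30). SLC16A3, the lactate exporter MCT4, instead rose with each perturbation, from 263 to 301 CPM in WT_shCTRL (median 281) to 387 to 428 in WT_shPTPN6 (median 416) and 372 to 430.4 in CD33KO_shCTRL (median 397). With both perturbations it reached 639.6, 612, 619, 622 and 656 CPM. That is 2.25-fold above WT_shCTRL, a log2 fold change of 1.17 ± 0.05 (edgeR adjusted p = 8.43e-44), with no overlap. Exons of SLC16A3 and of CSNK1D, on the other strand, overlap, and their reads cannot be told apart. Exons of other members, among them SLC2A1, HK2, HK3, PFKM, TPI1, PDK1, BNIP3L and ANKRD37, likewise overlap genes on the other strand. Those of PGK1 and PFKFB4 overlap ATP7A and UCN2 on the same strand. PDK1 and PDK3, kinases that hold pyruvate back from mitochondria, parted under the knockdown in wild type, with 0.51 ± 0.13 and -0.54 ± 0.11 (edgeR adjusted p = 0.000439 and 1.33e-05). They also parted under the knockdown in the knockout, with 0.55 ± 0.17 and -0.88 ± 0.15 (edgeR adjusted p = 0.00699 and 3.26e-07). Neither was called between CD33KO_shCTRL and WT_shCTRL.

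**Figure D3:**
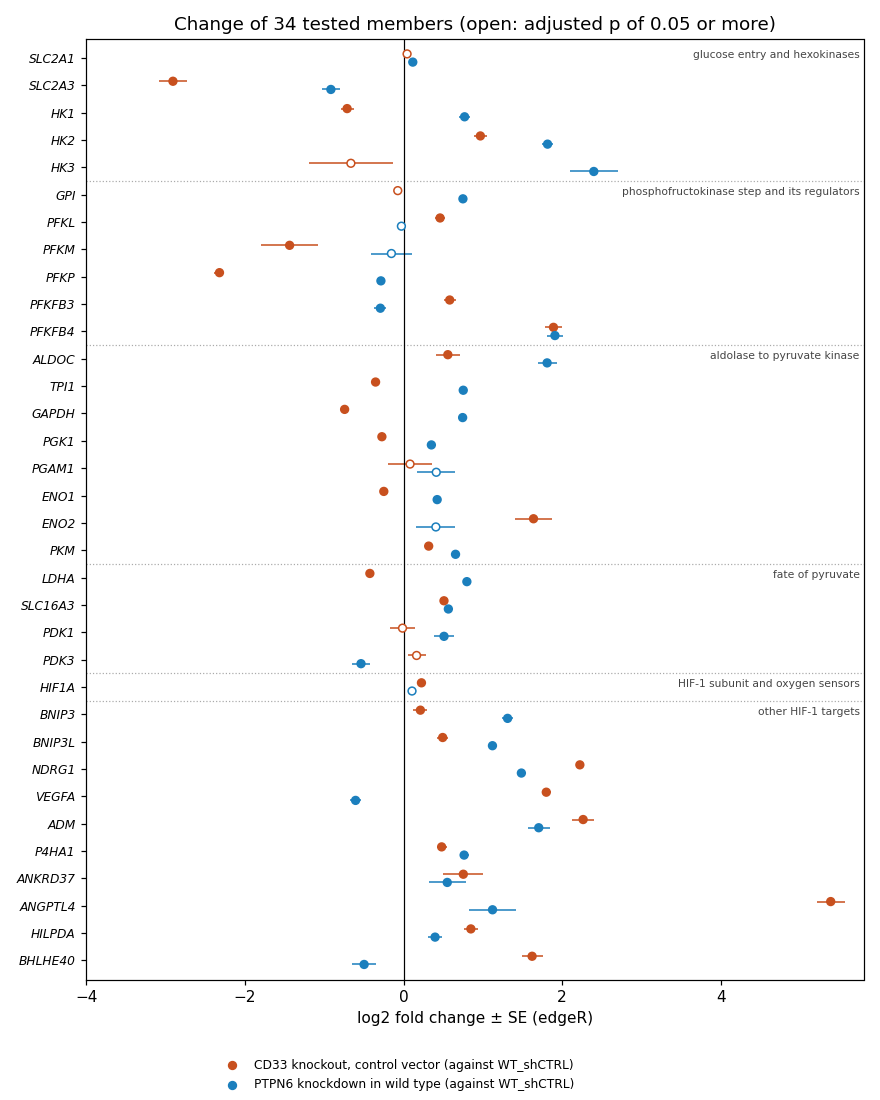
Log2 fold change with its SE of the 34 tested members against WT_shCTRL, for the knockout (CD33KO_shCTRL) and the knockdown (WT_shPTPN6), grouped by role, where open markers have an edgeR adjusted p of 0.05 or more. The 10 HIF-1 targets outside glycolysis all lie above 0 in the knockout, while GAPDH, TPI1, ENO1, PGK1 and LDHA lie below 0 in the knockout and above 0 in the knockdown; both comparisons share the WT_shCTRL libraries.

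The PTPN6 knockdown in wild type went with higher levels of most members, but of no phosphofructokinase. Of the 34 tested members 23 rose, against 30.2% of all genes, and 6 fell, against 30.4% (edgeR, adjusted p under 0.05). The groups did not overlap for 23 members, against 37.4% of all genes, and the median log2 fold change was 0.56, beside 0.00 over all genes. In the stretch from aldolase to pyruvate kinase 6 of 8 rose and none fell, and 3 of 4 genes of pyruvate use and 8 of 10 HIF-1 targets rose. Of the 6 genes of the phosphofructokinase step and its regulators, 2 rose (GPI and PFKFB4) and 2 fell, with a median of -0.09. PFKL and PFKM were not called. BNIP3 and BNIP3L rose from 36.7 CPM (32.0 to 40.1) to 88.1 (81.5 to 107) and from 55.6 CPM (52.4 to 57.8) to 121 (118 to 125). Their log2 fold changes were 1.31 ± 0.07 and 1.12 ± 0.06 (edgeR adjusted p = 4.85e-32 and 1.93e-33). The 6 that fell were SLC2A3, PFKP, PFKFB3, PDK3, VEGFA and BHLHE40. The call of PDK3 was lost with thinned counts (edgeR adjusted p = 0.068), and that of ANKRD37 (0.55 ± 0.23, edgeR adjusted p = 0.0343) was lost without any of 5 single libraries and with thinned counts, with adjusted p up to 0.45.

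With the CD33 knockout as background, the knockdown again raised more members than it lowered. Of the 34 members 18 rose, against 20.5% of all genes, and 5 fell, against 21.6%, with a median of 0.24, beside -0.01 over all genes (edgeR, adjusted p under 0.05). The groups did not overlap for 20 members, against 24.2% of all genes. The knockdown in wild type and in the knockout share no library, and 16 members (47.1%) rose in both, beside 14.3% of all tested genes. These 16 were 69.6% of the members that rose in wild type and 88.9% of those that rose in the knockout, where the figures over all genes were 47.4% and 69.9%. They were HK2, GPI, PFKFB4, ALDOC, GAPDH, PGK1, ENO1, PKM, LDHA, SLC16A3, PDK1, BNIP3, BNIP3L, NDRG1, ADM and P4HA1. PDK3, VEGFA and BHLHE40 fell in both (8.82% of the members, beside 14.9% of all genes). PFKP and PFKFB3 fell in wild type and rose in the knockout, and ANGPTL4 did the reverse. The rise of PFKP in the knockout, 0.28 ± 0.08 (edgeR adjusted p = 0.00431), had overlapping groups. That of PFKFB3, 0.20 ± 0.08 (edgeR adjusted p = 0.0396), ended under several alternatives, among them the fit with the replicate number as a block (adjusted p = 0.0517) and the fit without CD33KO_shPTPN6 replicate 6 (0.21).

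The difference between the 2 knockdown effects was tested as an interaction (the change on adding the hairpin to the knockout, less the change on adding it to wild type). It was negative and called for 19 of the 34 members, against 13.9% of all genes, and positive and called for 2, PFKP and PFKFB3, against 14.5% (edgeR, adjusted p under 0.05). The median over the members was -0.33, beside 0.00 over all genes. The most negative by adjusted p were NDRG1 (-0.79 ± 0.07), HK2 (-1.04 ± 0.11) and PFKFB4 (-1.26 ± 0.14), with edgeR adjusted p of 1.02e-18, 6.69e-14 and 3.41e-13. All 3 rose in both lines, and rose by less in the knockout, where their level with the control vector was already above WT_shCTRL. HK1 (-0.56 ± 0.12), GAPDH (-0.25 ± 0.07), TPI1 (-0.63 ± 0.09) and LDHA (-0.42 ± 0.08) were also negative, and for these the level in CD33KO_shCTRL was below WT_shCTRL. Of the HIF-1 targets outside glycolysis 7 of 10 were called, all negative. The call of BNIP3L (-0.23 ± 0.09, edgeR adjusted p = 0.0497) was lost under many alternatives, among them leaving out CD33KO_shCTRL replicate 5, with adjusted p up to 0.107. SLC16A3 (0.10 ± 0.07), PDK1 (0.03 ± 0.22) and PGK1 (-0.05 ± 0.08) had no called difference (edgeR adjusted p = 0.278, 0.933 and 0.678).

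**Figure D4:**
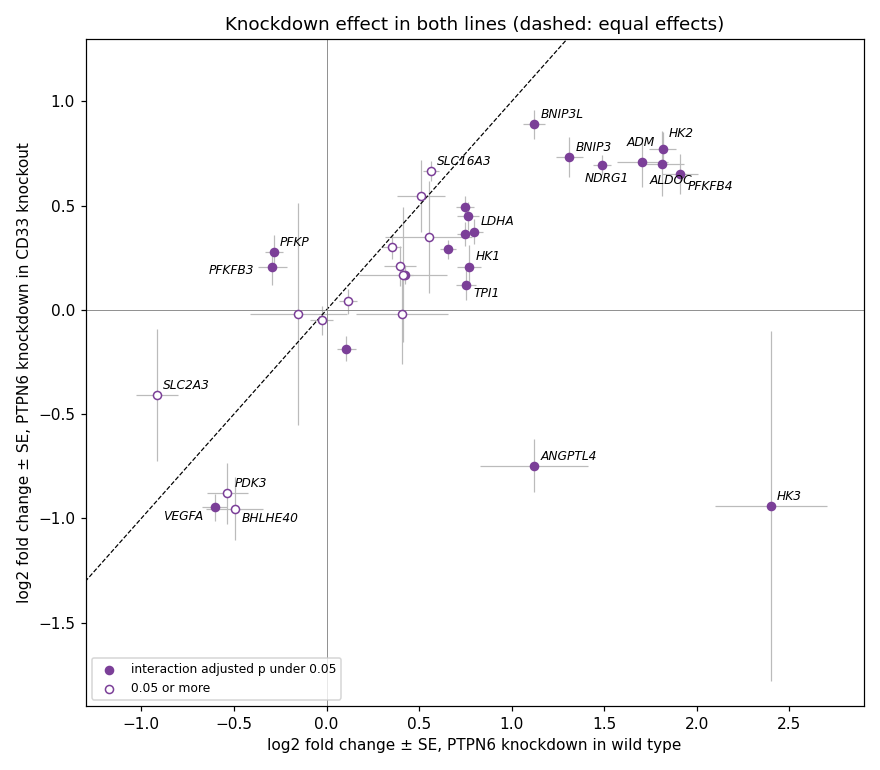
Log2 fold change with its SE of the PTPN6 knockdown in wild type (x axis) and in the CD33 knockout (y axis) for the 34 tested members, where filled points have an interaction with an edgeR adjusted p under 0.05 and the dashed line marks equal effects. Of the 21 filled points 19 lie below the line, and PFKP and PFKFB3 lie above it.

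With both perturbations, 20 members were higher than in WT_shCTRL, against 32.1% of all genes, and 8 were lower, against 31.7% (edgeR, adjusted p under 0.05). The groups did not overlap for 26 members, against 45.7% of all genes, and all 10 HIF-1 targets outside glycolysis were among those that rose, with no overlap for any of them. NDRG1, ADM and SLC16A3 reached their highest level in this group. GAPDH and TPI1 were below WT_shCTRL by -0.25 ± 0.05 and -0.23 ± 0.07, while ENO1, PGK1 and LDHA were not called (-0.08 ± 0.05, 0.03 ± 0.05 and -0.05 ± 0.06, edgeR adjusted p = 0.123, 0.686 and 0.444). LDHA was called lower under upper-quartile scaling (adjusted p = 0.0331), as was ENO1 (edgeR adjusted p = 0.00151). HK3 was called lower (edgeR adjusted p = 0.039) with overlapping groups, and the call was lost without CD33KO_shPTPN6 replicate 3 (adjusted p = 0.112).

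The knockout effect under the hairpin, which shares no library with the effect under the control vector, had 13 members higher, against 29.0% of all genes, and 13 lower, against 27.5% (edgeR, adjusted p under 0.05). The groups did not overlap for 25 members, against 37.2% of all genes, and the median was -0.06. All 13 that were higher had also risen under the control vector, which is 68.4% of the members that rose there. Over all tested genes, 66.5% of those higher under the hairpin had risen under the control vector, and 68.2% the other way round. The 13 include PFKL, PFKFB3, PFKFB4, ENO2, SLC16A3, NDRG1, VEGFA, ADM and ANGPTL4. Of the 13 that were lower, 9 had also fallen under the control vector (SLC2A3, HK1, PFKM, PFKP, TPI1, GAPDH, PGK1, ENO1 and LDHA), or 69.2%, beside 63.3% over all genes. These 9 were all the members that fell under the control vector, where the figure over all genes was 61.3%. GAPDH stood at 0.501 times and LDHA at 0.557 times the WT_shPTPN6 mean (edgeR adjusted p = 3.82e-29 and 8.53e-28). ALDOC and BNIP3 had risen under the control vector and were lower here, by -0.55 ± 0.13 and -0.37 ± 0.08. P4HA1 (0.17 ± 0.06, edgeR adjusted p = 0.0169) lost its call under upper-quartile scaling (adjusted p = 0.117).

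Other genes of glucose metabolism, 41 on a list of which 33 were tested, had 8 higher and 11 lower in the knockout and 18 higher and 5 lower with the knockdown in wild type. Over all genes the shares were 28.3% and 28.4% in the knockout and 30.2% and 30.4% with the knockdown. PDP1, the phosphatase that switches pyruvate dehydrogenase on, rose from 21.2 ± 2.18 to 118 ± 9.08 CPM (SD, n = 6 each) in the knockout and to 64.4 ± 7.45 (n = 6) with the knockdown. PGD, a dehydrogenase of the pentose phosphate pathway, rose in the knockout by 0.77 ± 0.05 on the log2 scale. LDHB, the lactate dehydrogenase subunit that favours lactate oxidation, fell from 273 ± 17.7 to 133 ± 4.67 CPM, and SLC16A1, the lactate transporter MCT1, from 114 ± 8.22 to 71.5 ± 7.76 CPM (n = 6 each). The fructose transporter gene SLC2A5 moved in opposite directions, from 24.6 ± 3.88 CPM down to 8.48 ± 1.31 in the knockout and up to 77.7 ± 1.67 with the knockdown (n = 6 each). All of these had groups without overlap and an edgeR adjusted p of at most 1.22e-15.

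Other genes tied to HIF, 39 on a list of which 29 were tested, had 17 higher and 6 lower in the knockout, where 28.3% and 28.4% of all genes were called, and 17 higher and 2 lower with the knockdown in wild type, where 30.2% and 30.4% were. TFRC, the transferrin receptor, rose in both, from 88.2 ± 7.76 CPM to 170 ± 14.2 and 170.2 ± 17.5 (SD, n = 6 each). CXCR4, a chemokine receptor, rose from 6.84 ± 1.57 to 22.2 ± 3.72 and 21.0 ± 2.27 CPM, and P4HA2, a second collagen hydroxylase subunit, by 1.03 ± 0.09 on the log2 scale in the knockout. GPD1L fell from 10.8 ± 1.48 to 4.63 ± 1.36 CPM in the knockout (edgeR adjusted p = 7.09e-08). ARNT, which encodes the beta subunit of HIF-1, was called lower with the knockdown at 74.8 ± 7.06 against 67.0 ± 4.68 CPM, with overlapping groups (edgeR adjusted p = 0.0314).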

How the data were processed

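RNA of 23 libraries was counted near 3′ ends. The values are raw counts per gene, as the authors deposited them. Tools listed in the submitters' processing notes, with no roles, are STAR 2.7.3a, bcl2fastq, Subread 2.0.0 and its featureCounts, DESeq2 1.26.0 and R 3.6.1, with the hg38 build. Annotation release, strand setting and duplicate handling are not given in the sources used here, so antisense reads may be included. Library totals ran from 2024032 to 6269304 counts.

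The analysis used R 4.3.3 and edgeR 4.0.16, with filterByExpr on low counts, TMM scaling and a robust glmQLFit with 1 mean per group. The 6 contrasts were tested with the quasi-likelihood test, adjusted by Benjamini-Hochberg over all 13098 genes. Each SE is the size of the log2 fold change divided by the root of its F statistic. The pipeline was checked on simulated data. Alternatives were DESeq2 1.42.0, other scalings and filters, thinned counts, a replicate block and each library left out. Positions came from GENCODE 29 and promoters from RefSeq (GRCh38.p14). Any member may be named; of the other lists, the 3 called genes with the smallest adjusted p per direction, some of which are not reported here. Members and lists were chosen with earlier results of these data known.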

Additional observations from a re-analysis of the deposited data

Results flagged for a closer look

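In the 136 sets of 1 member and 1 group, 11 had a library far from the others by Dixon's criterion, spread over 10 libraries, where chance gives about 1 in 20. The highest library was apart for SLC2A3 in CD33KO_shCTRL replicate 2 (7.33 CPM), PFKP in WT_shPTPN6 replicate 1 (240.4), ALDOC in WT_shPTPN6 replicate 2 (44.9), GAPDH in WT_shCTRL replicate 6 (2154), NDRG1 in WT_shPTPN6 replicate 6 (424), ADM in CD33KO_shPTPN6 replicate 4 (58.4), P4HA1 in CD33KO_shCTRL replicate 6 (115) and ANGPTL4 in CD33KO_shCTRL replicate 2 (72.4). The lowest was apart for PFKFB3 in CD33KO_shCTRL replicate 4 (70.2 CPM), TPI1 in WT_shPTPN6 replicate 5 (186) and PDK3 in CD33KO_shCTRL replicate 1 (25.9).

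The knockdown effect differed between the knockout and wild type for 21 members (edgeR interaction, adjusted p under 0.05). On the log2 scale the difference was positive for PFKP (0.56) and PFKFB3 (0.50). Among glucose entry, hexokinases and early glycolysis it was -0.56 for HK1, -1.04 for HK2, -3.34 for HK3, -0.39 for GPI and -1.26 for PFKFB4. Later in glycolysis it was -1.11 for ALDOC, -0.63 for TPI1, -0.25 for GAPDH, -0.25 for ENO1, -0.37 for PKM and -0.42 for LDHA. HIF1A had -0.29. The HIF-1 targets had -0.58 for BNIP3, -0.23 for BNIP3L, -0.79 for NDRG1, -0.34 for VEGFA, -0.99 for ADM, -0.31 for P4HA1 and -1.87 for ANGPTL4.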

How the results depend on the processing

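Every count of members or of all genes called higher or lower stayed within 1.5 times its value under each alternative run for it (19 to 30 per comparison, since libraries were left out only of the groups compared). Of 4279 results for a tested member, comparison and alternative, 4191 kept their call, 65 lost it, 23 gained one and none turned direction within a call. Without 1 library at a time, the members that rose numbered 17 to 19 in the knockout, 20 to 24 with the knockdown in wild type, 17 to 19 with it in the knockout and 20 with both perturbations, and the negative interactions 17 to 20. With counts thinned to the smallest library, they numbered 17, 20, 17, 20 and 17.

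Calls near the threshold depended on single libraries (edgeR adjusted p). BNIP3 in the knockout was lost without WT_shCTRL replicate 1, 2 or 5 (0.0964, 0.105 and 0.088) or CD33KO_shCTRL replicate 1, 3, 5 or 6 (0.0532, 0.134, 0.066 and 0.0601). SLC2A1 with the knockdown in wild type was lost without WT_shCTRL replicate 2 or 4 (0.0647 and 0.133) or WT_shPTPN6 replicate 1 or 2 (0.066 and 0.0657). ANKRD37 in that comparison was lost without WT_shCTRL replicate 2 or 3 (0.056 and 0.0755) or WT_shPTPN6 replicate 1, 2 or 3 (0.115, 0.057 and 0.0792), and in the knockout without CD33KO_shCTRL replicate 5 (0.114). HIF1A gained a call with the knockdown in wild type under DESeq2 (0.0375), under both other filters on low counts, and without WT_shCTRL replicate 1, 3 or 5 or WT_shPTPN6 replicate 2, 3, 4 or 5 (0.0227 to 0.0498). HK3 with both perturbations was lost without WT_shCTRL replicate 1, 3 or 6 (0.0627, 0.0537 and 0.0585) or CD33KO_shPTPN6 replicate 1, 3 or 6 (0.104, 0.112 and 0.0627). P4HA1 in the knockout under the hairpin was lost without WT_shPTPN6 replicate 1 or 4 (0.0563 and 0.0781) or CD33KO_shPTPN6 replicate 1 (0.053). The interaction of BNIP3L was lost without most single libraries (up to 0.107 without CD33KO_shCTRL replicate 5), and that of BHLHE40 was gained without CD33KO_shCTRL replicate 2 (0.0396). In the knockout, the knockdown effect was gained for HK1 without CD33KO_shPTPN6 replicate 4 (0.0341) and for HILPDA without replicate 3 (0.0375). Upper-quartile scaling added PKM in the knockout under the hairpin (-0.11, 0.0391). The causes of these changes were not tested.

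The labels number the replicates in every group. Same-numbered libraries did not deviate together: over 33 pairs the correlation of their deviations ran from -0.0493 to 0.0324, with none over 0.1, and 3 of 23 libraries correlated best with their own number. With the replicate block, 19 members rose and 9 fell in the knockout, 23 and 6 with the knockdown in wild type, and 17 and 5 with it in the knockout, where PFKFB3 was no longer called (0.19 ± 0.08, edgeR adjusted p = 0.0517). It changed no other call of a member. Low counts limit HK3, PFKM, PGAM1, ANKRD37, EGLN1, EGLN3 and ALDOA most, and ANGPTL4 in wild type. The reason for the low counts of ALDOA and PGAM1 was not tested.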
